A study of Mus musculus with 6 samples.

Results

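H19, Igf2, Igf2r, Plagl1, Peg3, Mest, Grb10, Ndn, Sgce and Nnat are imprinted genes tied to growth, and several of them are known for high expression in the embryo that is turned down after birth. They were taken as a list of names, with no threshold on a measured value, but with earlier results of these data known. H19 was also among the genes that the study followed up by RT-qPCR. The study picked those genes from the lncRNAs it had called different between these same samples. All 10 genes of the set were found among the 25823 genes of the table by their gene symbols. They were measured by RNA-sequencing in the cochlea of C57BL/6 mice, with 3 young samples (1 month of age) and 3 old samples (12 months), and the tissue of 3 mice was mixed in each sample. All mice were of the same strain, an inbred strain that loses hearing early, and the labels list no treatment other than anesthesia before dissection. The labels describe the tissue as cochlea, with RNA taken from dissected basilar membranes. The youngest group had already passed the neonatal weeks, so the embryonic level of these genes was not measured, and the interval between the groups covers late maturation as well as aging.

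An imprinted gene is transcribed mainly from the chromosome inherited from 1 parent, through DNA methylation laid down in the egg or the sperm. Igf2 encodes insulin-like growth factor 2, a paternally expressed growth factor that signals through the type 1 IGF receptor. The neighbouring H19 gene gives a maternally expressed long noncoding RNA. Both genes share enhancers whose access is set by a control region that binds Ctcf. Igf2r, maternally expressed in the mouse, carries Igf2 to the lysosome, and Grb10 encodes an adaptor that restrains insulin and IGF signaling. FPKM (fragments scaled by transcript length and by library size) does not separate the parental chromosomes, so imprinting itself was not measured here.

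The genes lie on 6 mouse chromosomes, and coordinates are those of GRCm38. H19 (chromosome 7, 142575529 to 142578143, minus strand) and Igf2 (chromosome 7, 142650766 to 142666816, minus strand) are 72623 nt apart. Peg3 (6703892 to 6730431, minus strand) and Ndn (62346569 to 62350262, plus strand) are on the same chromosome. Mest (30723547 to 30748465, plus strand) and Sgce (4674350 to 4747207, minus strand) are on chromosome 6, far from each other. Igf2r is on chromosome 17 (12682406 to 12769664, minus strand) and Plagl1 on chromosome 10 (13060504 to 13131694, plus strand). Grb10 is on chromosome 11 (11930508 to 12038683, minus strand) and Nnat on chromosome 2 (157560078 to 157562522, plus strand).

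Members of the set also carry microRNA hairpins, and their mature sequences are shown because the level of the host transcript is what the table measured for them. The hairpin of miR-675 (chr7:142577064-142577147, minus strand) lies in an exon of the long H19 transcript ENSMUST00000136359. The hairpin of miR-483 (chr7:142654924-142654996, minus strand) lies in an intron of Igf2, and that of miR-335 (chr6:30741299-30741396, plus strand) in an intron of Mest. The sequences are from RefSeq (GRCm38.p6), 5′ to 3′, with the seed (bases 2 to 8) in capitals. No seed was shared among these 6 microRNAs. The hairpin transcripts themselves were not in the table, and small RNA was not measured.
miR-675-5p: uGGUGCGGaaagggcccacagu
miR-675-3p: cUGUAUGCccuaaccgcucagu
miR-483-5p: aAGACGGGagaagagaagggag
miR-483-3p: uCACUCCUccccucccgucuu
miR-335-5p: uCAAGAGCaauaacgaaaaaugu
miR-335-3p: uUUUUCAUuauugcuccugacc

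RefSeq promoter windows (GRCm38.p6, 250 bases before to 50 after the start) were matched for 8 of the 10 genes, 14 windows in all. H19 and Sgce had no entry. The 250 bases before the start are shown for Mest and Peg3, which were lower in old mice, and for the Igf2 start that carried nearly all of its FPKM, with CpG dinucleotides, the sites of DNA methylation, in capitals. The Mest stretch is chr6:30737800-30738049 (plus strand), that of Peg3 chr7:6730420-6730669 (minus strand) and that of Igf2 chr7:142657497-142657746 (minus strand).
Mest: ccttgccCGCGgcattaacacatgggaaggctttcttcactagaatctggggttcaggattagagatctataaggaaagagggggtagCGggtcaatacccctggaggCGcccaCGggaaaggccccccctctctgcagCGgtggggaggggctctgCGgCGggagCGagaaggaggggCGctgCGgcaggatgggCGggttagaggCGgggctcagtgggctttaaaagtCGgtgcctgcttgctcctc
Peg3: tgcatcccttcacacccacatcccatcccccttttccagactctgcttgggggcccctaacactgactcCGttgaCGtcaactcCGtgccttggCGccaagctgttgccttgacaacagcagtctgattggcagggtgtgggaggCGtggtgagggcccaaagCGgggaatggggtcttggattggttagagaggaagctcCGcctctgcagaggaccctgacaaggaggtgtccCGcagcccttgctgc
Igf2: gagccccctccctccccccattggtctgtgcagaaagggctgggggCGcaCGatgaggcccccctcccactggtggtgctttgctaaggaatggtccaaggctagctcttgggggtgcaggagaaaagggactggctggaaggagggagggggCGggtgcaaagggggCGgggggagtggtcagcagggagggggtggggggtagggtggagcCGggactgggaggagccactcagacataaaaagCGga

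The whole windows of 300 bases held 17 CpG in Mest, 13 in Peg3 and 7 in Igf2, and the median of all 32851 windows was 7. At least as many CpG as in the Mest window were present in 31.4% of all windows, at least as many as in Peg3 in 37.9%, and at least as many as in Igf2 in 52.1%. Both strands were searched for TATAAA, GCCATNTT and GGGGCCCC. TATAAA (13.6% of all windows) and GCCATNTT (6.05%) were in none of the 14 windows. GGGGCCCC (1.08% of all windows) was in the Peg3 window alone. The Mest start shown above carried 5.17 FPKM in young and 2.30 FPKM in old samples, and an upstream Mest start in the same table was at or near 0 in both. The Igf2 start shown carried 14.1 FPKM in young and 18.3 FPKM in old samples.

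Low FPKM values come in steps of 1 fragment, which gave an estimated depth of 12550000 to 15660000 fragments per sample, and 93.2% to 95.2% of the low values used lay within 0.1 of a whole fragment, against 20% by chance. Correlations between samples of the same age were 0.953 to 0.967 on the log2 scale, and no pair of samples was identical. Old and young samples were compared by limma on log2(FPKM + 0.1), with Benjamini-Hochberg adjustment over the 19649 genes whose mean FPKM was 0.1 or more and a threshold of 0.05. Because each sample is a pool and the labels give no more on how pools were made, p-values measure the spread between these samples. In bulk tissue, fewer cells of a type and less RNA per cell cannot be told apart. Markers of hair cells were present at a summed 121 to 211 FPKM in young and 69.9 to 93.4 FPKM in old samples. Bone markers reached 5112 to 5838 FPKM in young and 4282 to 4701 FPKM in old samples, most of it Spp1 (osteopontin), at 5353 FPKM in young and 4430 FPKM in old samples.

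Mest, Peg3 and Ndn fell with age, and no gene of the set rose past the threshold. All 10 passed the filter on low values. The 3 that fell were 30.0% of the set, while 3.68% of all genes tested were lower in old samples, and 5.41% of all genes were higher. At an unadjusted p, 4 of the 10 were lower and 2 higher by limma, beside 13% and 14.5% of all genes. In 5 genes (H19, Peg3, Mest, Grb10 and Ndn) every old sample was below every young sample, which held for 16.0% of all genes. In Igf2 and Sgce every old sample was above every young sample, which held for 17.5% of all genes. The median log2 change of the set was -0.35, with 7 of 10 below 0, and that of all genes was 0.0087. The genes of the set were chosen with earlier results of these data known, so these counts are not independent of the data. H19 also came from calls on these same samples.

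**Figure D1:**
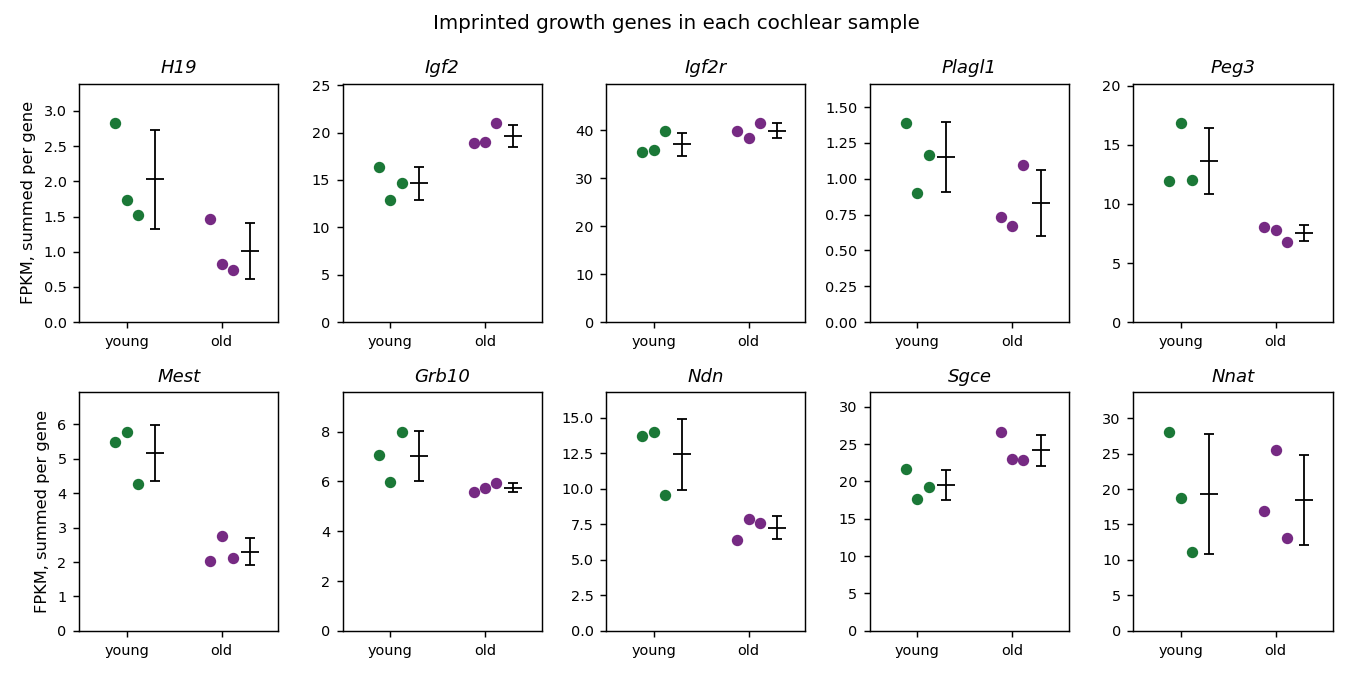
FPKM of the 10 imprinted genes (y axis, summed over transcripts, linear, each panel with its own scale from 0) in the 3 young and 3 old samples (points, replicates 1 to 3 from left to right), with the group mean and SD (bar). Old samples lie below all young samples for H19, Peg3, Mest, Grb10 and Ndn, above them for Igf2 and Sgce, and the groups overlap for Igf2r, Plagl1 and Nnat.

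Levels differed widely within the set. In young samples the order by mean FPKM was Igf2r (37.0), Sgce (19.6), Nnat (19.3), Igf2 (14.6), Peg3 (13.6), Ndn (12.4), Grb10 (7.004), Mest (5.18), H19 (2.03) and Plagl1 (1.15). From Sgce to Ndn each gene overlapped with the next in that order, so those places are not separated beyond the spread. Igf2r was above Sgce in every sample, and from Ndn down each gene lay above the next without overlap. In old samples Igf2 moved ahead of Nnat, with overlapping values, and the other places were the same. Neighbours that overlapped in old samples were Igf2 with Nnat, Peg3 with Ndn, and H19 with Plagl1. FPKM is scaled by transcript length, so these levels can be set beside each other, within the limits of assigning fragments to overlapping transcripts.

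Among the genes of IGF signaling, Igf2, the growth factor itself, was detected at 16.3, 12.9 and 14.7 FPKM in young replicates 1 to 3 and at 18.94, 18.98 and 20.97 FPKM in the old ones. The groups did not overlap, and the highest young sample was below the lowest old sample. The mean was 14.6 ± 1.70 FPKM (SD, n = 3) at 1 month and 19.6 ± 1.16 FPKM at 12 months. The log2 change was 0.43 (SE 0.11, 95% interval 0.17 to 0.68), with a limma adjusted p of 0.0515, just outside the threshold. Under 4 of the 17 other settings of the fit that p was under the threshold, with a range of 0.0420 to 0.134. These values rest on an estimated 468 to 777 fragments per sample.

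Igf2r, the receptor that clears Igf2, was the most abundant of the set, at 35.4, 35.9 and 39.8 FPKM in young and 39.8, 38.3 and 41.4 FPKM in old samples. The groups overlapped. The log2 change was 0.11 (SE 0.07, 95% interval -0.07 to 0.28, limma adjusted p = 0.401), and the exact permutation test gave a two-sided p of 0.2. Within each sample, the ratio of Igf2 to Igf2r averaged 0.396 in young and 0.493 in old samples, and every old ratio was above every young ratio. The difference of 0.32 on the log2 scale had an exact permutation p of 0.1, the smallest that 3 samples against 3 can give.

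Grb10, the signaling adaptor, was at 7.06, 5.98 and 7.98 FPKM in young and at 5.58, 5.75 and 5.93 FPKM in old samples. The old samples were closely spaced and all lay just below the young ones. The log2 change of -0.27 (SE 0.14, 95% interval -0.59 to 0.05) had a limma adjusted p of 0.246. Most of its FPKM came from ENSMUST00000093321, at 5.99 ± 0.940 FPKM in young and 5.36 ± 0.256 FPKM in old samples (SD, n = 3). A transcript from a start further downstream, ENSMUST00000109654, had 0.184, 0.458 and 0.407 FPKM in the young group and 0.0904 FPKM in old replicate 2, with the other old samples at or near 0. These values rest on an estimated 10.9, 28.3 and 22.7 fragments in young samples and 6.3 in old replicate 2, and its limma p adjusted over all transcripts was 0.235.

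H19 was a low transcript, at 2.82, 1.73 and 1.52 FPKM in young and at 1.46, 0.831 and 0.741 FPKM in old samples. Every old sample was lower, but old replicate 1 came close to young replicate 3. The log2 change was -0.94 (SE 0.34, 95% interval -1.75 to -0.14) with a limma adjusted p of 0.128. That p ranged from 0.0430 to 0.291 over the 17 other settings and was under the threshold in 1 of them, in which the most abundant transcript stood for the gene. The estimated fragment numbers were 38 to 75 in young and 18 to 23 in old samples. The study used another test, Cuffdiff, and drew its RT-qPCR genes, H19 among them, from lncRNAs with an adjusted p under 0.05. It reported that the RT-qPCR patterns of all these genes matched its sequencing.

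The H19 signal was divided between a pair of transcripts. ENSMUST00000136359 (2286 nt, 5 exons), which contains the miR-675 hairpin shown above, carried all of the H19 FPKM in young samples and 0.454, 0.694 and 0.741 FPKM in old samples. Its log2 change was -1.52 (SE 0.39, limma p adjusted over all transcripts 0.118). ENSMUST00000140716 (817 nt, 2 exons), which does not reach the hairpin, was at or near 0 in the young group and in old replicate 3, reached 1.01 FPKM in old replicate 1 and 0.137 FPKM in old replicate 2, from an estimated 6.6 and 1.1 fragments. The share of the longer transcript was 31.1% in old replicate 1, 83.6% in old replicate 2 and 100% in every other sample. The choice of transcript changed the value of old replicate 1 most, and with so few fragments the split between overlapping transcripts is uncertain.

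Igf2 and H19 were also set against each other within samples. The ratio of Igf2 to H19 averaged 7.14 in young and 18.4 in old samples, with log2 ratios of 2.49, 2.83 and 3.18 in young and 3.61, 4.36 and 4.65 in old samples. Their difference was 1.37 on the log2 scale. Igf2 was higher and H19 lower in every old sample, so the ratios could not overlap. The exact permutation p of 0.1 (two-sided, the smallest possible) therefore adds nothing to the values of each gene. Leaving out single samples gave differences of 1.15 to 1.67. The ratio of Igf2 to Igf1, the other IGF ligand, averaged 0.203 in young and 0.259 in old samples (exact permutation p = 0.2), and Igf2 was the less abundant ligand in every sample.

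Of the Igf2 transcripts, ENSMUST00000097936 was at 10.04 ± 1.28 FPKM in young and 14.5 ± 1.05 FPKM in old samples (SD, n = 3), a log2 change of 0.53 (limma p adjusted over all transcripts 0.0971). ENSMUST00000000033, from the same promoter window, was at 4.05 ± 0.405 FPKM in young and 3.82 ± 0.820 FPKM in old samples. Its log2 change of -0.10 had an adjusted p of 0.848. The share of the former within Igf2 was 66.2% to 70.1% in young and 71.8% to 75.1% in old samples. A transcript from an upstream promoter, ENSMUST00000105936, was at or near 0 in the young group and had 0.241, 0.137 and 0.126 FPKM in the old group, with an estimated 11.2, 7.9 and 6.3 fragments. It was detected in old samples alone, but its mean was under the filter and it was not tested. With so few fragments the split between overlapping transcripts is uncertain. ENSMUST00000121128, which also starts upstream, was present in every sample. It had 0.558, 0.388 and 0.723 FPKM in young and 0.586, 1.68 and 1.16 FPKM in old samples. Its groups overlapped (limma p adjusted over all transcripts 0.445).

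**Figure D2:**
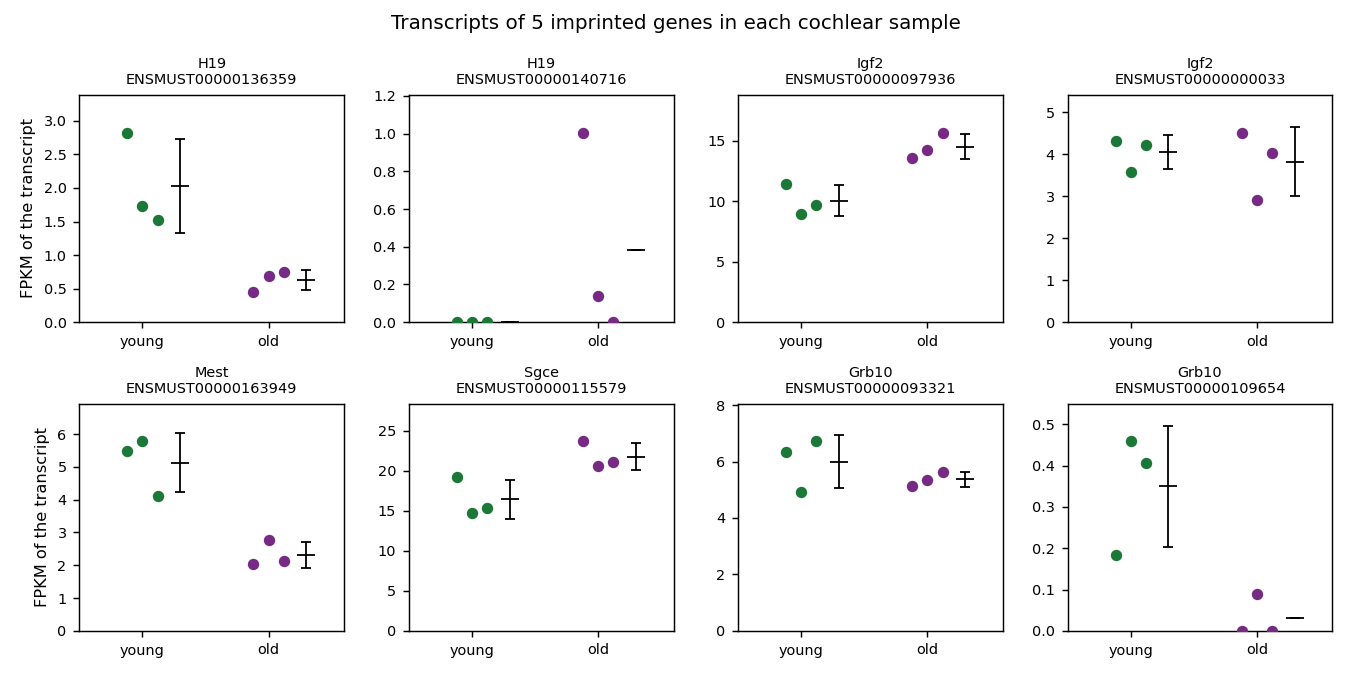
FPKM (y axis, linear, each panel with its own scale from 0) of 8 transcripts of H19, Igf2, Mest, Sgce and Grb10 in the 3 young and 3 old samples (points), with group mean and SD. No SD is drawn where it exceeds the mean. The second H19 transcript stands out through old replicate 1, at 1.01 FPKM, and the downstream Grb10 transcript is present in all young samples and in 1 old sample.

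Mest, a paternally expressed gene for a hydrolase-like protein of mesodermal tissues, fell by the widest margin of the 3 in the reported fit. It was at 5.49, 5.78 and 4.26 FPKM in young and at 2.03, 2.77 and 2.12 FPKM in old samples. The lowest young sample was well above the highest old sample. The mean fell from 5.18 ± 0.808 to 2.30 ± 0.403 FPKM (SD, n = 3), and the log2 change was -1.13 (SE 0.19, 95% interval -1.59 to -0.68, limma adjusted p = 0.0219). The estimated fragment numbers were 121 to 182 in young and 58 to 99 in old samples. ENSMUST00000163949, which starts at the promoter shown, carried nearly all of it, and the host intron of miR-335 belongs to this transcript.

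Peg3, a paternally expressed zinc finger transcription factor, was at 12.0, 16.8 and 12.0 FPKM in young and at 8.05, 7.78 and 6.79 FPKM in old samples. Young replicate 2 was the highest, and all old samples were below all young ones. The mean went from 13.6 ± 2.78 to 7.54 ± 0.663 FPKM (SD, n = 3), a log2 change of -0.83 (SE 0.16, 95% interval -1.19 to -0.46, limma adjusted p = 0.0265). Ndn, which encodes necdin, a protein that restrains the cell cycle of differentiating neurons, was at 13.8, 14.0 and 9.56 FPKM in young and at 6.39, 7.87 and 7.56 FPKM in old samples. Young replicate 3 was the lowest of the young samples and still above every old sample. The log2 change of Ndn was -0.75 (SE 0.17, 95% interval -1.15 to -0.35, limma adjusted p = 0.0405).

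These 3 calls rested on the full set of samples. With young replicate 3 left out, all 3 stayed under the threshold, and with young replicate 1 left out, Peg3 alone did (limma adjusted p = 0.0475). With young replicate 2 or any old replicate left out, none did, and the adjusted p over these fits was at most 0.0738 for Mest, 0.0897 for Peg3 and 0.124 for Ndn. Over all 17 other settings the adjusted p was under the threshold in 11 for Mest, 12 for Peg3 and 9 for Ndn. With single samples left out, the log2 changes ran from -1.27 to -1.05 for Mest, from -0.91 to -0.67 for Peg3 and from -0.93 to -0.66 for Ndn.

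Plagl1, a zinc finger transcription factor known to act on other imprinted genes, was the least abundant of the set. It was at 1.39, 0.902 and 1.17 FPKM in young and at 0.733, 0.668 and 1.10 FPKM in old samples, with old replicate 3 inside the young range. The log2 change was -0.43 (SE 0.30, 95% interval -1.14 to 0.27, limma adjusted p = 0.398), from an estimated 30 to 51 fragments per sample. Nnat, which encodes neuronatin, a membrane proteolipid of the endoplasmic reticulum, had the widest spread in FPKM within groups. It was at 28.02, 18.8 and 11.2 FPKM in young and at 16.9, 25.5 and 13.03 FPKM in old samples. Its log2 change of -0.02 (SE 0.36, 95% interval -0.86 to 0.81, limma adjusted p = 0.976) ranged from -0.37 to 0.29 with single samples left out.

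Sgce, which encodes epsilon-sarcoglycan, a membrane protein of the dystrophin complex, was at 21.7, 17.7 and 19.2 FPKM in young and at 26.6, 23.1 and 22.9 FPKM in old samples. All old samples were above all young samples by a small margin. The log2 change of 0.31 (SE 0.11, 95% interval 0.06 to 0.55) had a limma adjusted p of 0.113. The transcript ENSMUST00000115579 made up 80.0% to 88.2% of Sgce in young and 88.9% to 92.1% in old samples, with an exact permutation p of 0.1, the smallest possible.

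**Figure D3:**
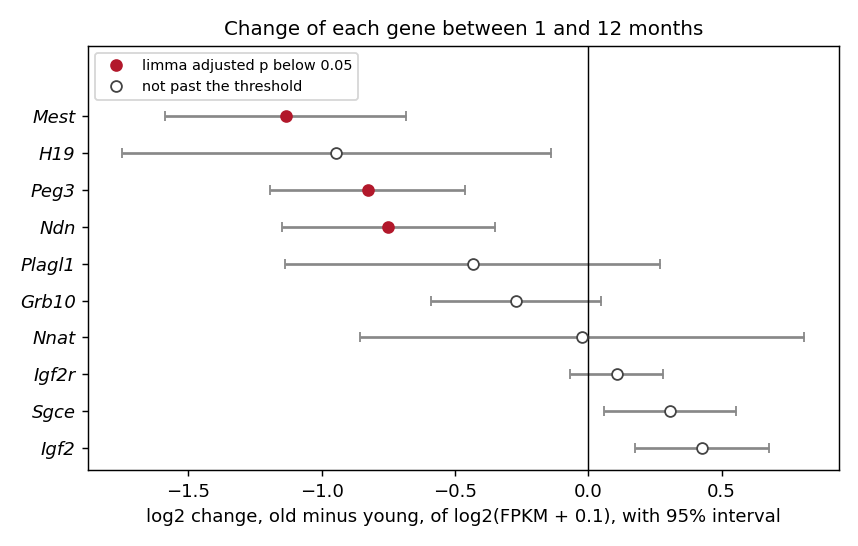
Log2 change from young to old samples (x axis, difference of log2(FPKM + 0.1)) of the 10 imprinted genes (y axis), with the 95% interval of limma (bar) and filled points where the adjusted p was under 0.05. Mest, Peg3 and Ndn are filled and below 0, and the intervals of H19, Igf2 and Sgce leave out 0 without passing the adjusted threshold.

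At the level of transcripts, 48 of the 92 annotated transcripts of the set were in the table and 27 passed the filter. None passed the limma threshold with p adjusted over all 38764 transcripts tested, of which 0.199% were lower and 0.549% higher in old samples. At an unadjusted p, 7 of the 27 were lower and 2 higher, beside 7.98% and 9.05% of all transcripts. The main transcripts of Mest and Peg3 had an adjusted p of 0.0737 each.

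Genes within 100 kb of the set were counted in the same fit. Of 29 such genes in the table, 23 passed the filter, and 2 of these were at 0 throughout an age group and were not counted. Of the other 21, none was lower and 3 were higher in old samples, beside 3.68% and 5.41% of all genes. With 21 genes, none lower is near the share of all genes. Their median log2 change was 0.08. At an unadjusted p, 1 was lower (Mkrn3, below) and 4 were higher. Cep41, a centrosomal protein gene 29798 nt from Mest, rose from 3.82 ± 0.533 to 10.3 ± 0.942 FPKM (SD, n = 3, limma adjusted p = 0.00867). Copg2, which overlaps Mest on the other strand, was at 36.9 FPKM in young and 35.0 FPKM in old samples (adjusted p = 0.577). Near Nnat, the noncoding gene Platr27 was listed at 0 in every young sample and at 0.717, 0.736 and 0.219 FPKM in old samples, and it passed the filter through the old samples alone. Blcap, in which Nnat is nested on the other strand, was at 22.6 FPKM in young and 19.6 FPKM in old samples (adjusted p = 0.225).

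Airn, the noncoding RNA that overlaps Igf2r on the other strand and is known to silence Igf2r on the paternal chromosome, rose from 7.47 ± 0.416 to 11.9 ± 2.37 FPKM (SD, n = 3, log2 change 0.65, limma adjusted p = 0.0461). Slc22a2, a transporter gene listed as imprinted and 53918 nt from Igf2r, rose from 0.594 ± 0.0569 to 2.17 ± 0.590 FPKM (adjusted p = 0.0212). The libraries were directional, but the strand setting of the quantification is not given in the sources used here, so fragments of Airn and of Igf2r introns may not be separated fully.

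The head-to-head partners of Peg3 and Sgce were both lower in every old sample than in every young sample, without passing the threshold. Usp29, whose start is 147 nt from that of Peg3, was at 0.617 FPKM in young and 0.374 FPKM in old samples (log2 change -0.58, limma adjusted p = 0.343). Peg10, 99 nt from Sgce, was at 0.876 FPKM in young and 0.560 FPKM in old samples (log2 change -0.57, adjusted p = 0.239), whereas Sgce was above its young level in all old samples. Mkrn3, an imprinted neighbour of Ndn, was at 1.63 FPKM in young and 0.970 FPKM in old samples, again with no overlap (log2 change -0.71, adjusted p = 0.125). Zim1, next to Peg3, was at 0.588 FPKM in young and 0.666 FPKM in old samples (adjusted p = 0.815).

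**Figure D4:**
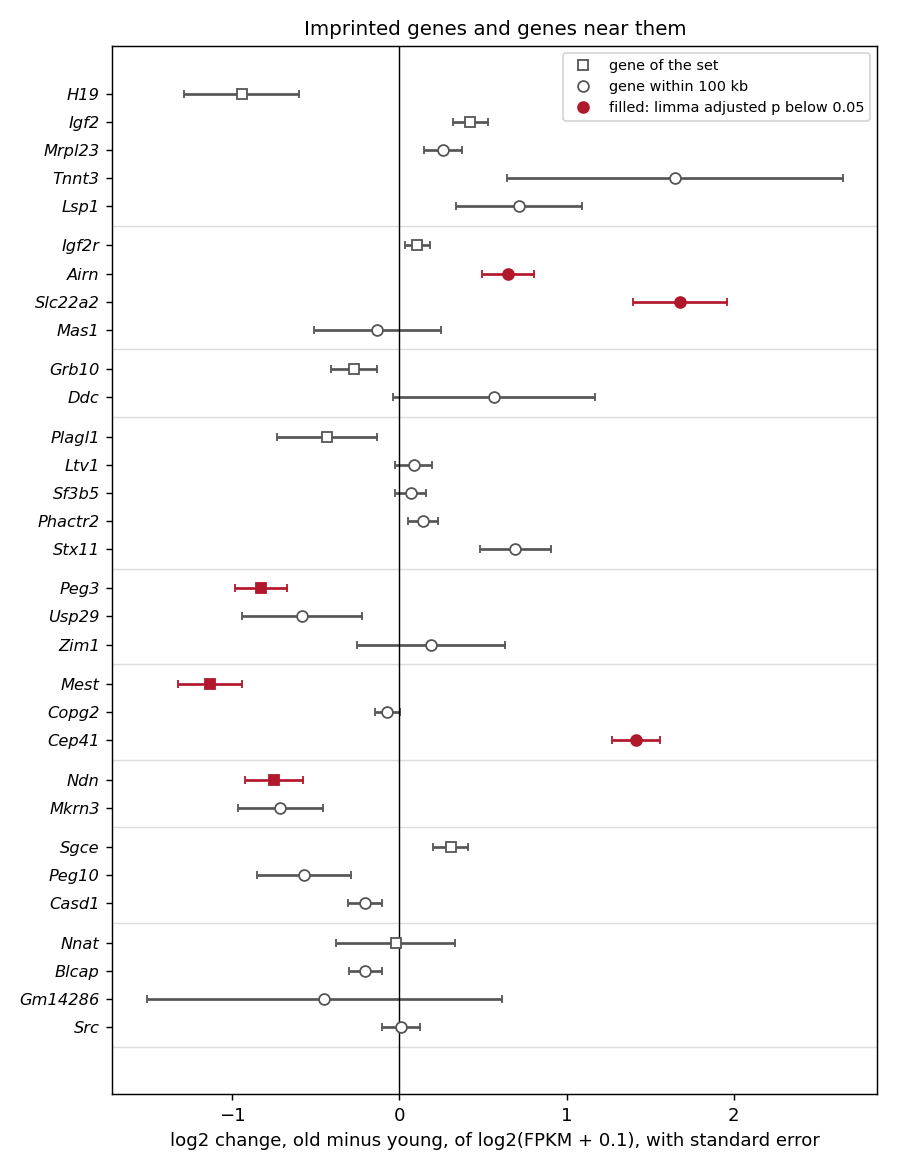
Log2 change from young to old samples with its standard error (x axis) for the 10 imprinted genes (squares) and 21 genes within 100 kb of them (circles, those that passed the filter and were not at 0 throughout an age group), grouped by locus (y axis). Filled symbols passed the limma threshold: Peg3, Mest and Ndn are below 0, and Airn, Slc22a2 and Cep41 are above 0.

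Genes outside the set that are listed as imprinted moved in both directions. The list was not limited to genes imprinted in the cochlea, and imprinting was not measured. Of 57 measured genes on a list of 65, 4 were lower (7.02%) and 6 higher (10.5%) by limma, with a median log2 change of -0.06, beside 3.68% and 5.41% of all genes. Rian, a maternally expressed noncoding RNA, fell from 150.5 ± 33.4 to 72.8 ± 6.37 FPKM (SD, n = 3, adjusted p = 0.0194). Like H19, Rian was among the RT-qPCR genes drawn from calls on these same samples. Its part in the count is not independent of the data. Snrpn, a splicing protein gene expressed in neurons, fell from 76.2 to 44.8 FPKM (adjusted p = 0.0284), and Dcn, which encodes the matrix proteoglycan decorin, from 253.1 to 178.8 FPKM (adjusted p = 0.0269). Cdkn1c, an inhibitor of cyclin-dependent kinases, rose from 44.7 to 65.7 FPKM (adjusted p = 0.0258), and Tspan32, a tetraspanin of blood cells, from 2.09 to 5.04 FPKM (adjusted p = 0.0137). Gnas, the most abundant of the list that did not pass, was at 256.8 FPKM in young and 240.3 FPKM in old samples. Named after their values were seen, Nap1l5 also fell (40.8 to 19.7 FPKM), and Cd81 (326.5 to 427.8 FPKM) and Pon3 (7.21 to 11.2 FPKM) rose. Slc22a2 and Airn, described above, complete the count.

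Other genes of the IGF pathway (ligands, receptors, binding proteins, proteases, signaling adaptors and regulators of Igf2 RNA) also moved both ways. Of 18 measured genes on a list of 23, 2 were lower and 2 higher (11.1% each), beside 3.68% and 5.41% of all genes. Their median log2 change was 0.03. Pappa, a protease that frees IGF by cutting its binding proteins, fell from 6.28 ± 1.53 to 2.55 ± 0.221 FPKM (SD, n = 3, log2 change -1.24, limma adjusted p = 0.0209). Pappa2, a related protease, rose from 0.241 ± 0.0905 to 0.843 ± 0.110 FPKM (log2 change 1.50, adjusted p = 0.0472). Igfbp6, a binding protein that prefers Igf2, fell from 69.3 ± 15.5 to 39.4 ± 2.55 FPKM (adjusted p = 0.0265), and Igfbp2 rose from 182.8 ± 26.6 to 266.8 ± 10.9 FPKM (adjusted p = 0.0261). Igfbp5 was at 108 FPKM in young and 109.4 FPKM in old samples (adjusted p = 0.917), and Igfbp7 at 81.8 and 67.7 FPKM (adjusted p = 0.399). Igf1r, the signaling receptor, was at 36.5 FPKM in young and 36.1 FPKM in old samples, with a 95% interval of the log2 change from -0.18 to 0.15 (adjusted p = 0.893).

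Genes that set or maintain imprints were called about as often as all genes. Of 13 measured on a list of 15, 1 was lower (7.69%) and none higher by limma, and at an unadjusted p 2 were lower and none higher. Smchd1, a chromatin protein of silenced loci, fell from 16.2 ± 0.646 to 12.9 ± 0.356 FPKM (SD, n = 3, adjusted p = 0.0478). Ctcf, the insulator protein of the H19 and Igf2 locus, was at 18.9 ± 1.07 FPKM in young and 15.9 ± 0.887 FPKM in old samples, with no overlap (adjusted p = 0.118). Trim28, the most abundant of the list, was at 34.3 FPKM in young and 34.8 FPKM in old samples (adjusted p = 0.859).

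Markers of other cell types differed between the ages as well, and several genes of the set are known in those cells. Of 12 neuron markers, 5 were lower and none higher in old samples, with a median log2 change of -0.90 and a summed level of 928, 1184 and 604 FPKM in young and 418, 451 and 410 FPKM in old samples. Within the young group the order of samples differed between lists. The neuron and Schwann cell sums were highest in young replicate 2, and the fibroblast, bone and hair cell sums were lowest in it. Peg3, Mest and Ndn were highest in young replicate 2, Mest and Ndn by a small margin over young replicate 1. Mest and Ndn were lowest in young replicate 3. Of 12 fibroblast markers, 4 were lower and none higher (median -0.56), and their sum was 478 to 606 FPKM in young and 347 to 383 FPKM in old samples. Of 12 bone markers, 2 were lower and none higher (median -1.18). Of 10 Schwann cell markers 3, and of 9 hair cell markers 3, were lower, and none of either list was higher. At an unadjusted p, 10 neuron, 7 fibroblast, 11 bone, 7 Schwann cell and 7 hair cell markers were lower, and 1 neuron, 2 fibroblast and 1 bone marker were higher. The part of these cell types in the lower levels of Mest, Peg3 and Ndn was not tested.

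Macrophage markers went the other way, with 9 of 10 higher and a sum of 133 to 204 FPKM in young and 713 to 785 FPKM in old samples. The part of macrophages in the rise of Tspan32 was not tested. Supporting cell markers had 1 lower and 2 higher of 10 measured, and cartilage markers 2 lower and 2 higher of 9. None of 14 proliferation markers passed in either direction, and none had an unadjusted p under the threshold, with sums of 73.1 to 86.5 FPKM in young and 73.3 to 78.6 FPKM in old samples. None of 10 endothelial and pericyte markers and none of 7 erythrocyte markers passed by limma, with 2 and 1 lower at an unadjusted p. None of 9 skeletal muscle markers passed, with 2 higher at an unadjusted p, and their sum reached 29.4 FPKM in old replicate 1, against 5.41 to 9.93 FPKM in the other samples.

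**Figure D5:**
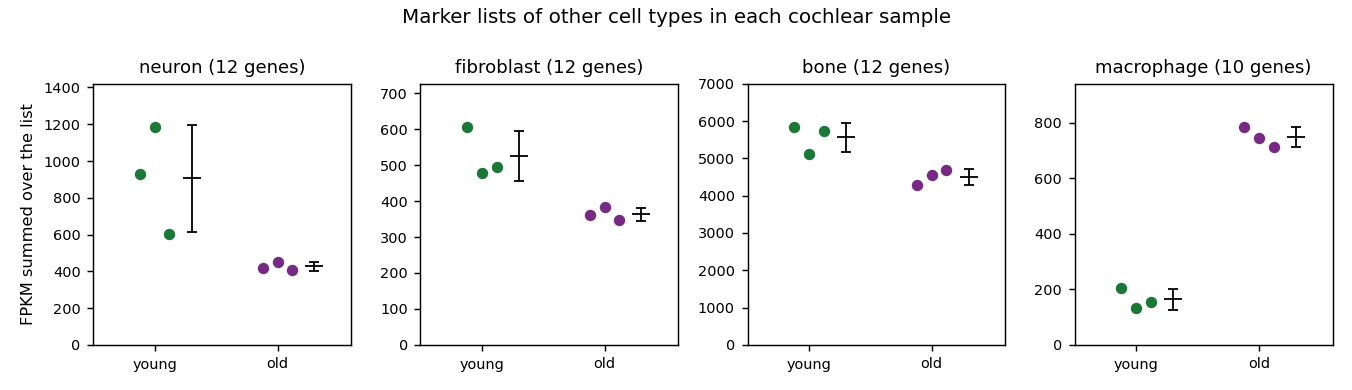
FPKM summed over marker lists (y axis, linear, from 0) of neurons, fibroblasts, bone and macrophages in the 3 young and 3 old samples (points), with group mean and SD. The neuron, fibroblast and bone sums are lower in every old sample than in every young sample, and the macrophage sum is higher. Most of the bone sum is Spp1.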

How the data were processed

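Cochlear RNA was sequenced from 3 young and 3 old pooled samples. The authors made directional libraries, aligned reads to GRCm38 and deposited FPKM per transcript and sample. The submitters' processing notes name CASAVA 1.8, TopHat2 2.0.9, Cufflinks 2.1.1 and Cuffdiff 2.1.1. The annotation release and strand setting are not given in the sources used here.

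FPKM were summed per gene of GENCODE M21. Of 55679 Ensembl transcripts, 404 were not found and stayed as single entries. limma 3.58.1 in R 4.3.3 (lmFit, eBayes with trend, two-sided) was run on log2(FPKM + 0.1), which understates the change of low genes, and single values were compared by exact permutation tests. Estimated fragment numbers cover counting error only. The code was tested on simulated data.

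The genes of the set and every list were chosen with earlier results of these data known. All genes of the set were named, and of each list those past the threshold (up to 6) and up to 2 most abundant others. Neighbours were named where past the threshold or imprinted. Alternatives were the pseudocount, filter, scaling, variance trend, sample weights, replicate block, left-out samples, transcripts summed and call rule.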

Additional observations from a re-analysis of the deposited data

How the results depend on the processing

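Of the genes of the set, 3 were past the threshold as reported, 2 without a filter (Ndn at a limma adjusted p of 0.0682), 0 without the variance trend, 5 with the most abundant transcript of each gene and 6 at an unadjusted p, and 0 to 3 with single samples left out. The number lower was 0 without the trend and 0 to 3 with samples left out. The number higher, 0 as reported, was 1 (Igf2) with a filter at a mean of 1 FPKM, with arrayWeights, with transcripts under 400 nt left out and with the most abundant transcript, and 2 at an unadjusted p. At an unadjusted p, 9 transcripts of the set passed. The log2 change of Nnat was 0.0597 with arrayWeights and -0.37 to 0.29 with samples left out. No other gene of the set changed sign under the alternatives run.

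Of the other imprinted genes, 1 was lower without a filter and 1 without the trend, 12 at an unadjusted p and 0 to 5 with samples left out, and 3 were higher without a filter, without the trend and with the most abundant transcript, and 0 to 5 with samples left out. Of the IGF list, 1 was lower without a filter, 0 without the trend and 0 to 2 with samples left out. On the same list 1 was higher with a pseudocount of 0.01, quantile normalization, no trend or the most abundant transcript, 0 without a filter and 0 to 2 with samples left out. Of the genes that maintain imprints, 0 were lower with quantile normalization, no trend, the most abundant transcript or any sample left out, and 2 at an unadjusted p. The causes were not tested.

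Samples with the same replicate number did not deviate together (correlations of 0.0306, -0.0958 and 0.0388), so the numbers were not taken as a pairing. With a replicate block, 2 of the set passed, both lower, and Ndn did not (limma adjusted p = 0.0704). With the block, 3 of the other imprinted genes were higher, 0 of the IGF list were higher and 0 of the genes that maintain imprints were lower.

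Over all genes, 724 were lower and 1063 higher as reported, 121 and 271 without the trend, 292 and 616 without a filter, 265 and 410 with the replicate block, and 15 and 44 without old replicate 2.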

Other observations

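Over the 6 samples and 15074 genes with a mean of at least 1 FPKM, the genes whose log2(FPKM + 0.1) followed H19 most closely were Serf1 (Pearson r = 0.985), Edil3 (0.983) and St3gal1 (0.977). Those that followed Igf2 most closely were Emp1 (0.995), Pdxk (0.995) and Arfrp1 (0.995). Serf1 averaged 9.33 FPKM in young and 6.45 FPKM in old samples, and Emp1, a membrane protein gene of epithelia, 18.2 and 22.5 FPKM. These values were taken as the highest of many genes in 6 samples that share the difference in age, and they are a description with no test.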
